A study of Mus musculus with 9 samples.

Results

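Ribosome footprints were described on 10 genes of the p53 pathway: Trp53, which encodes p53, its inhibitors Mdm2 and Mdm4, and 7 p53 target genes. The targets, grouped here as non-apoptotic, are Ccng1, Sesn1, Zmat3, Phlda3, Trp53inp1, Plk2 and Gadd45a. This grouping does not exclude a part of these genes in cell death, which was not analysed here. The 10 genes were taken by symbol from the 16921 genes of the deposited table, in which each occurs once. All 10 were among the 10103 genes kept for testing, whose mean fitted value over the libraries was 10 or more. In RiboSeq, the stretches of mRNA that ribosomes shield from nuclease are sequenced and counted per gene. The cells were bone marrow-derived macrophages of TTP-deficient (Zfp36-/-) mice, immortalized with the human oncogenes hcmyc and hRasG12V, and then transduced with a doxycycline-inducible construct for GFP, for GFP–TTP or for GFP–TTP-AA, a TTP with the substitutions S52A and S178A at its phosphorylation sites. Of the TTP gene, the GFP–TTP and GFP–TTP-AA constructs held the coding sequence only. All macrophages received doxycycline (1 µg/ml) for 6 h and LPS (1 µg/ml) for 1 h, so that there was neither an unstimulated nor an uninduced group here, and each of the 3 conditions had 3 libraries. Each condition was a separately transduced line, so that differences between the lines and effects of the expressed protein cannot be told apart.

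p53 is a transcription factor that stress signals stabilize. Mdm2 is the ubiquitin ligase that marks p53 for degradation and is itself a transcriptional target of p53, and Mdm4 is a related protein that binds p53 and blocks its activation domain. The targets of p53 arrest the cell cycle, repair DNA, restrain growth signalling or induce apoptosis. TTP, the protein that the transduced constructs restore, binds AU-rich elements in the 3′ untranslated region (3′UTR) of mRNAs and promotes their decay or the repression of their translation.

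AU-rich elements of the kind TTP binds contain the pentamer ATTTA, often within the heptamer TATTTAT. Both motifs were counted, overlaps included, on the sense strand of the annotated 3′UTR of the transcript with the longest coding sequence (GENCODE vM21, GRCm38). Every heptamer holds 1 of the counted pentamers. Of the 10 genes, 9 held at least 1 ATTTA and 5 held at least 1 TATTTAT, while of 9852 kept genes with an annotated 3′UTR 66.7% held the pentamer and 27.8% the heptamer. Mdm2, Ccng1, Zmat3 and Trp53inp1 held 8 pentamers each, more than 90.9% of the kept genes, in 3′UTRs of 1335, 2316, 6692 and 4420 bases, respectively. Per 1000 bases they held 5.99, 3.45, 1.20 and 1.81, so that Zmat3 and Trp53inp1 lay below the 1.84 over all kept genes. Sesn1, Plk2 and Gadd45a held 2 each, Trp53 and Mdm4 1 each, and Phlda3 none in its 727 bases. Plk2 and Trp53inp1 held 2 heptamers each, and 1 was found in each of Mdm2, Ccng1 and Gadd45a. Together the 10 3′UTRs held 2.16 pentamers per 1000 bases, compared with 1.84 over all kept genes. These are matches of letters. Binding of TTP was not analysed here, and a relation between the motifs and the fold changes below was not tested.

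The following windows of 30 bases are shown because they hold the densest pentamers of the inhibitor of p53, of both genes that were past the threshold and hold the motif, and of Plk2, both of whose pentamers lie in heptamers. They are read 5′ to 3′ on the strand of the gene, with each ATTTA in capitals.
Mdm2, chr10:117689806-117689835, minus strand: ataagaacATTTAATTTATTTAgtgtcttt
Trp53inp1, chr4:11172063-11172092, plus strand: ttcccaccacATTTATTTAtcccttaagta
Sesn1, chr10:41907388-41907417, plus strand: aatgaacagcacATTTAgtgtacaagggga
Plk2, chr13:110400746-110400775, plus strand: ATTTAttacagccccaagagcagtATTTAt
All 4 windows lie in 1 exon of the 3′UTR. The window of Mdm2 packs 3 overlapping or adjacent pentamers and begins 375 bases after the stop codon. That of Trp53inp1 holds 2 overlapping pentamers, the second of them within a heptamer. The window of Sesn1 holds a single pentamer, and its other one lies far downstream.

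**Figure D1:**
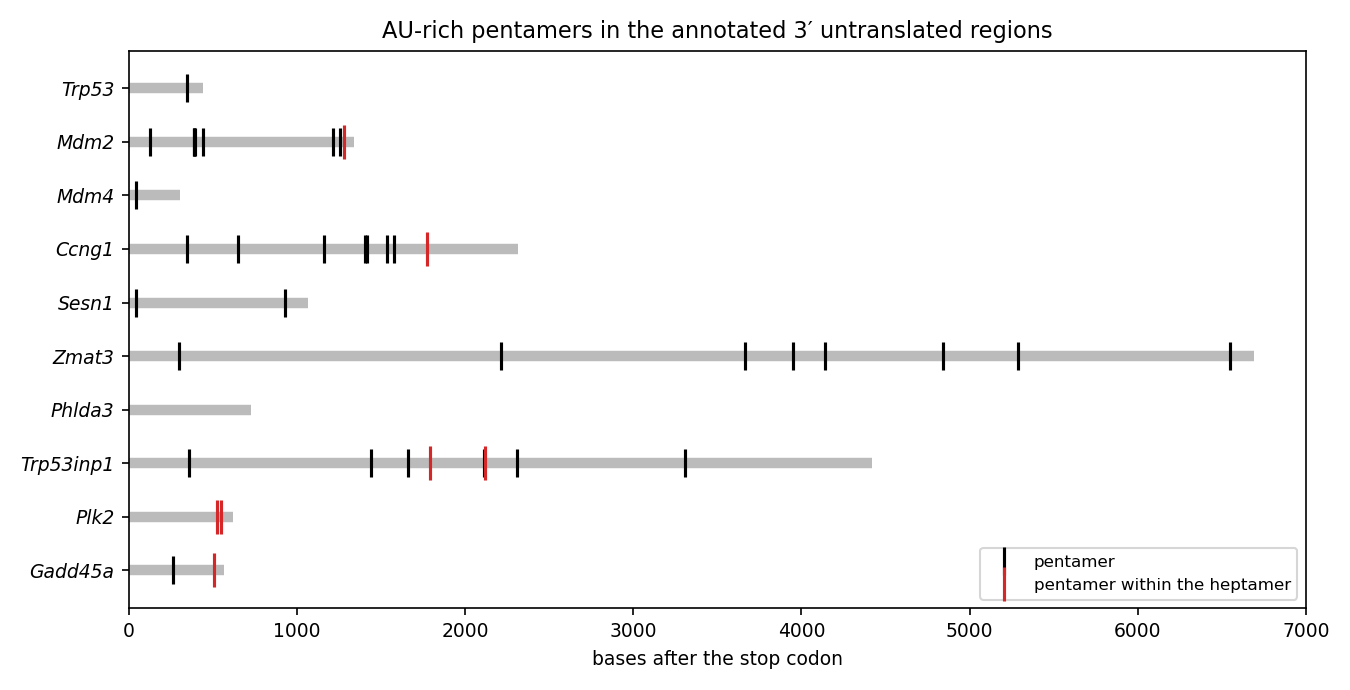
Annotated 3′UTR of each of the 10 genes drawn to scale as a grey bar, in bases after the stop codon, with a black mark for each ATTTA pentamer and a red mark for each pentamer within TATTTAT. Mdm2 has 4 of its 8 pentamers between positions 383 and 441, both pentamers of Plk2 lie close together, those of Zmat3 are spread over its 3′UTR of 6692 bases, and Phlda3 has none.

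The deposited table named as normalized counts holds, for each library, the value that the authors' statistical model fitted for the gene, with 1 term for the condition and 1 for the library date, and not the observed count. Log2 values were additive in condition and replicate number up to a residual SD of 1.64e-15. A library value below is the fitted value divided by the size factor of the library, the level of a condition is the geometric mean of its 3 library values, and a fold change is the difference between 2 levels on the log2 scale. Because of the model, all 3 replicates show the same ratio between 2 conditions, and libraries of 1 condition differ only through the replicate term. The error of a fold change is therefore the standard error (SE) that the authors deposited with each comparison. The authors' model shrinks these fold changes towards 0, which also applies to the bounds of the 95% intervals given here. Nothing in the labels says that the replicates were separate cultures, so that p-values may measure technical spread only. A gene was past the threshold if its Wald p-value, adjusted over the kept genes of the comparison by the Benjamini-Hochberg method, was under 0.05. The comparisons share libraries and are not independent.

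The smallest library held a sum of 2570292 fitted footprints and the largest 12804501. Zfp36 itself, counted together with the construct, served as a check of the labels and had a level of 458.4 with GFP, 925.2 with GFP–TTP and, highest of all, 1534 with GFP–TTP-AA. The GFP line thus had footprints on Zfp36 although its label is Zfp36-/- and its construct holds no TTP. Which part of the gene they cover was not analysed here, so that the check bears on the order of the lines and not on the absence of TTP in the GFP line. Its log2 fold change was 1.01 ± 0.25 (SE) for GFP–TTP and 1.74 ± 0.25 for GFP–TTP-AA over GFP (adjusted p = 0.00492 and 2.34e-09), and 0.73 ± 0.25 between the TTP lines (adjusted p = 0.0385). All 8 macrophage markers were found, with library values from 192.1 to 75307, and of 19 markers of other cell types 10 had values and none reached a level of 10. The summed macrophage markers nevertheless differed, at 96036 with GFP, 76104 with GFP–TTP and, again highest, 109299 with GFP–TTP-AA, mostly through Lyz2, and their part in the results below was not tested.

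Per 1000 bases of coding sequence, the only scale on which genes are compared with each other here, Mdm2 had the highest level of the 10 genes in GFP macrophages (6895 fitted footprints) and Mdm4 the lowest (37.8). Phlda3 (2313), Plk2 (1607), Ccng1 (1569) and Trp53 (1458) came next, followed by Zmat3 (784), Gadd45a (277), Trp53inp1 (221) and Sesn1 (165). The library values of Ccng1 overlapped those of Phlda3, Plk2 and Trp53, those of Plk2 and Trp53 overlapped as well, and those of Trp53inp1 overlapped those of Gadd45a and Sesn1. Mdm2, Zmat3 and Mdm4 stood apart from their neighbours in this order.

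In GFP–TTP compared with GFP macrophages 1 of the 10 genes was past the threshold, Sesn1, which fell. The background was 2.09% of 9938 genes tested (0.805% higher and 1.29% lower). In GFP–TTP-AA compared with GFP macrophages 3 of the 10 genes were past it, Trp53inp1 and Phlda3, which rose, and Sesn1, which fell, beside a background of 3.03% of 10103 genes tested (1.76% higher and 1.27% lower). Between the TTP lines only Trp53inp1 was past the threshold, higher with GFP–TTP-AA. This was 1 of 10 genes beside 10.2% of all genes tested, 5.66% higher and 4.58% lower, so that the share of the 10 genes was that of the background. Over the 10 genes the median log2 fold change was -0.12 for GFP–TTP against GFP, 0.06 for GFP–TTP-AA against GFP and 0.15 for GFP–TTP-AA against GFP–TTP, beside medians over all kept genes of 0.0011, 0.0055 and 0.0057. Trp53, Mdm2, Mdm4, Ccng1, Zmat3, Plk2 and Gadd45a were past the threshold in no comparison.

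**Figure D2:**
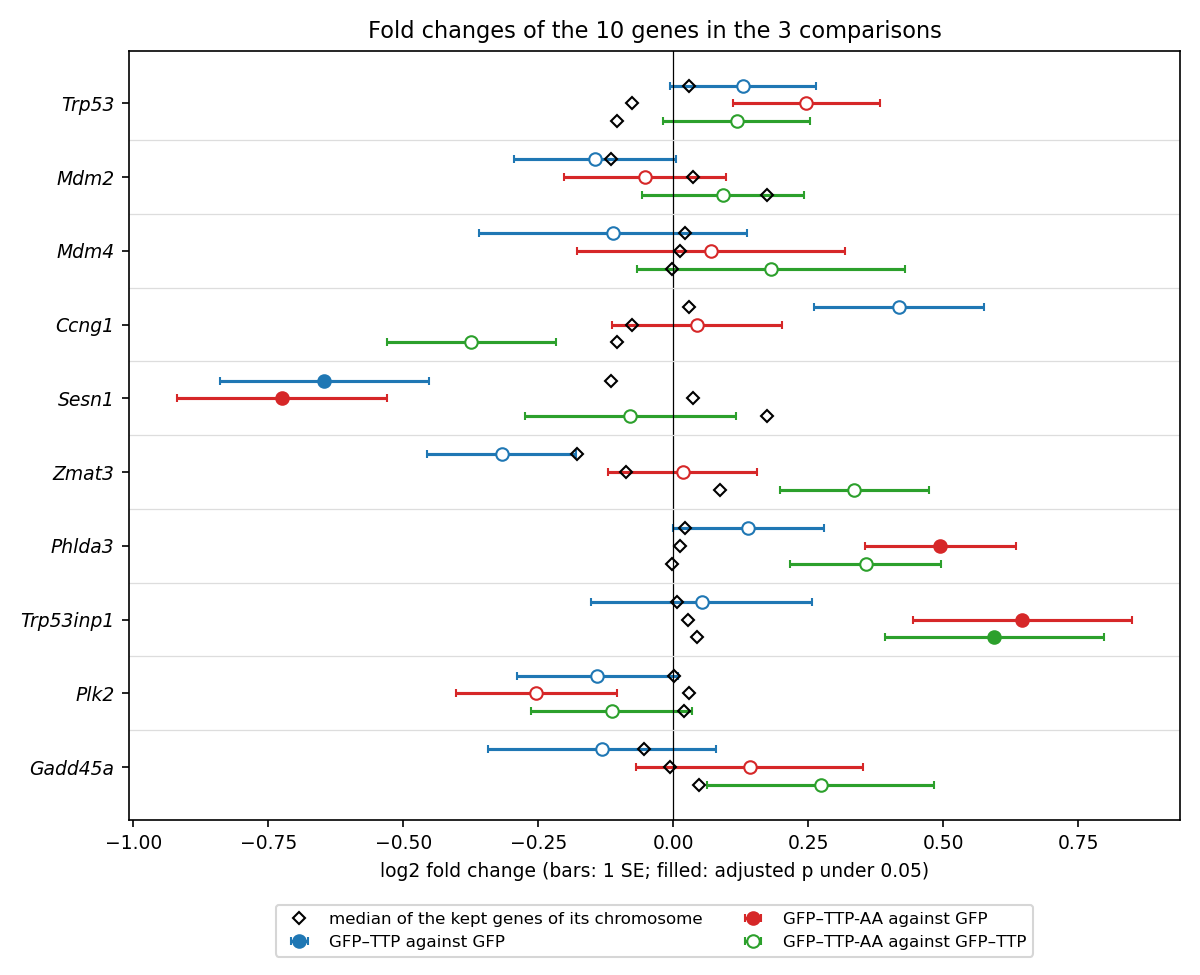
Log2 fold change (x axis) of the 10 genes in the 3 comparisons, with 1 SE from the authors' deposited tables as bars, filled where the adjusted p was under 0.05, and the median fold change of the kept genes on the same chromosome as diamonds. Sesn1 lies below 0 in both comparisons with GFP, Phlda3 and Trp53inp1 lie above 0 for GFP–TTP-AA against GFP, and the diamonds of chromosome 10 (Mdm2 and Sesn1) reach from -0.12 to 0.17.

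Trp53 encodes p53 itself and lies on the plus strand of chromosome 11 (69580359 to 69591873). Replicates 1, 2 and 3 had library values of 1539, 1718 and 1878 with GFP, 1683, 1879 and 2054 with GFP–TTP, and for GFP–TTP-AA 1825, 2038 and 2228, and all later values are given in this order. The libraries of the 3 conditions overlapped widely. Over GFP, Trp53 had a log2 fold change of 0.13 with an SE of 0.14 in the GFP–TTP line (adjusted p = 0.800). In the GFP–TTP-AA line it was 0.25 ± 0.14 (adjusted p = 0.415), with a 95% interval from -0.02 to 0.51. Footprints on Trp53 were thus neither shown to change nor shown to be equal. Kept genes of chromosome 11 had a median of -0.08 in the latter comparison, in the opposite direction.

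The inhibitors Mdm2 and Mdm4 were past the threshold in no comparison. Mdm2 lies on the minus strand of chromosome 10 (117688875 to 117710758), and its library values were 7912, 12326 and 10614 with GFP, 7156, 11149 and 9600 with GFP–TTP, and for GFP–TTP-AA 7627, 11882 and 10232. The spread between replicates, which the model assigns to the library date, was larger than the spread between conditions, and the conditions overlapped. The log2 fold change of Mdm2 was -0.14 ± 0.15 for GFP–TTP (adjusted p = 0.795) and -0.05 ± 0.15 for GFP–TTP-AA against GFP (adjusted p = 0.948). In GFP–TTP-AA against GFP–TTP it was 0.09, with a 95% interval from -0.20 to 0.39, and -0.08 after subtraction of the chromosome 10 median. All 3 changes of Mdm2 were within 1 SE of 0.

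Mdm4, on the minus strand of chromosome 1 (132959484 to 133030561), had library values of 49.7, 57.0 and 60.4 with GFP, 46.0, 52.7 and 55.9 with GFP–TTP, and for GFP–TTP-AA 52.1, 59.8 and 63.4. The conditions overlapped. With an SE of 0.25 in each comparison, the largest among the 10 genes, its 95% interval for GFP–TTP-AA against GFP reached from -0.42 to 0.56. Changes within these bounds were not excluded. Reads were kept at up to 2 places in the genome and the pseudogene Mdm4-ps is in the same table, although its level was only about 0.21 in each condition.

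**Figure D3:**
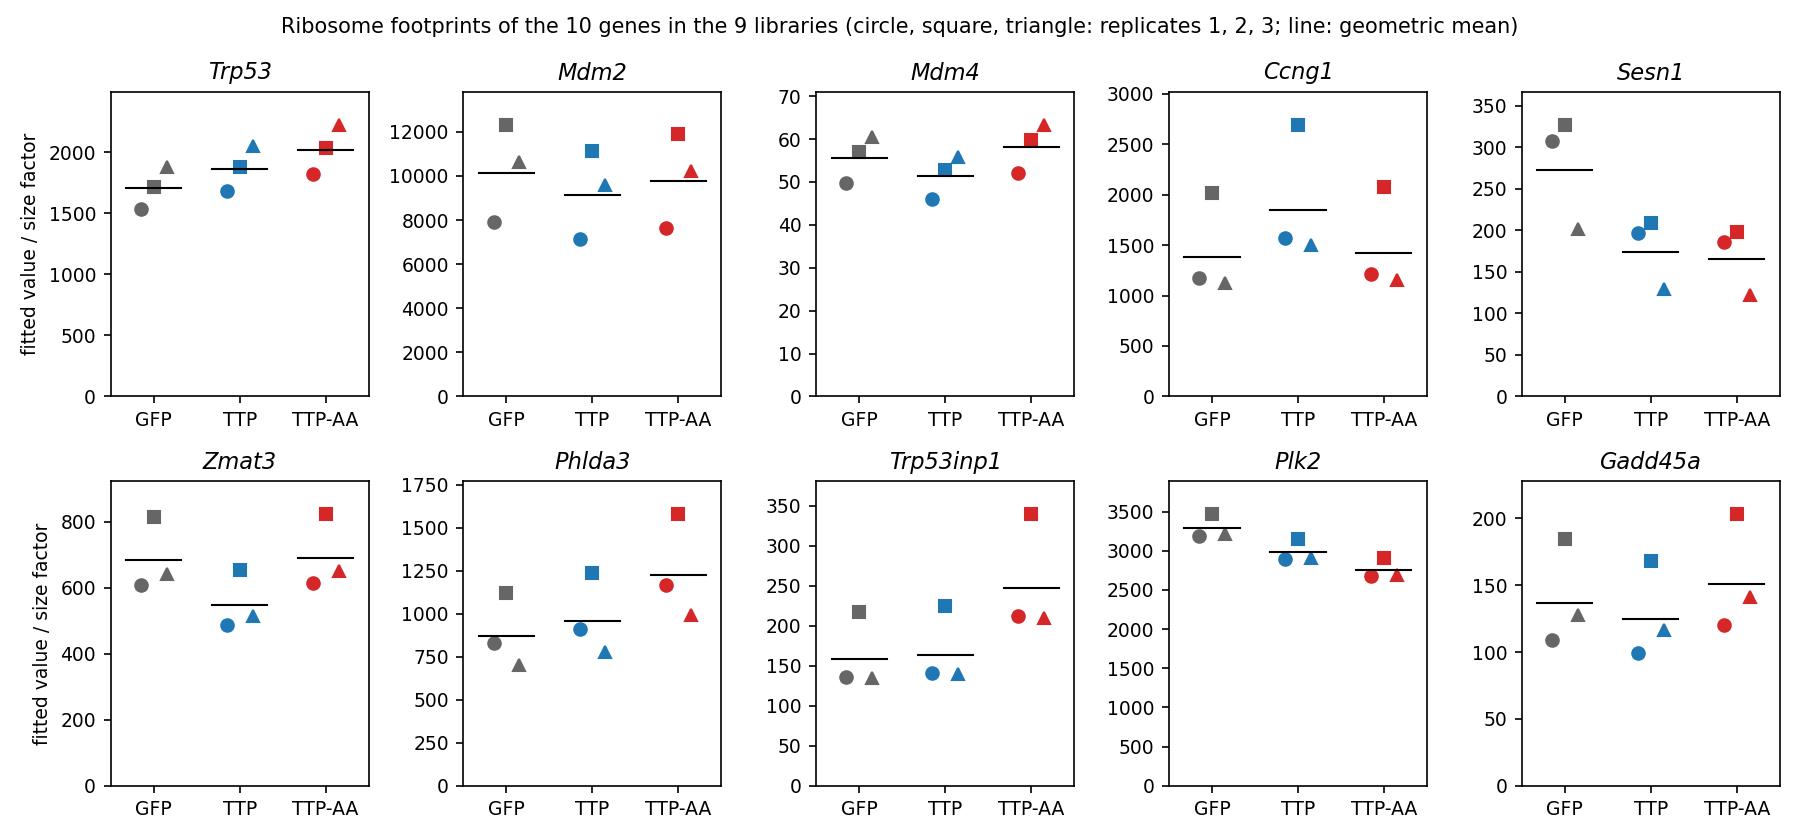
Library values (fitted value divided by size factor, linear y axes from 0) of the 10 genes in GFP, GFP–TTP (TTP) and GFP–TTP-AA (TTP-AA) macrophages, with replicates 1, 2 and 3 as circle, square and triangle and the level of the condition as a line. Sesn1 is lower in both TTP lines, and Phlda3 and Trp53inp1 are higher in the GFP–TTP-AA line. Because the values are fitted, the ratio between 2 conditions is the same at every replicate number and shows no agreement between replicates. For the same reason the distance between symbols is the same in each condition on a log scale.

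Sesn1 encodes sestrin 1, a stress protein that restrains mTORC1 signalling, and it had the lowest percentiles of the 10 genes in both comparisons with GFP. It lies on the plus strand of chromosome 10 (41809935 to 41908424). Its library values were 307.8, 327.2 and 202.0 in GFP macrophages, 196.7, 209.1 and 129.1 in GFP–TTP macrophages and 186.2, 197.9 and 122.2 in GFP–TTP-AA macrophages. All GFP–TTP-AA libraries lay below the lowest GFP library, while the range of GFP–TTP reached just into that of GFP. These ranges are of fitted values and are no measure of the observed spread. Sesn1 fell by 0.65 on the log2 scale with GFP–TTP (SE 0.19, adjusted p = 0.0439), that is, from a level of 273.0 to 174.4 (-36.1%). With GFP–TTP-AA it fell by 0.73 (SE 0.19, adjusted p = 0.0114), to a level of 165.1 (-39.5%). Only 1.41% and 0.554% of the kept genes had a lower fold change in these comparisons. The TTP lines were not shown to differ from each other (log2 fold change -0.08, 95% interval from -0.46 to 0.30).

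The fall of Sesn1 coincided with a shift of its chromosome in one of these comparisons. The median of the kept genes on chromosome 10 was -0.12 for GFP–TTP against GFP and 0.04 for GFP–TTP-AA against GFP. After subtraction of the chromosome medians Sesn1 was -0.53 with GFP–TTP, which was no longer past the threshold (adjusted p = 0.196), and -0.76 with GFP–TTP-AA. The part of the chromosome in the result was not tested further.

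Phlda3 encodes a protein with a pleckstrin homology domain that competes with Akt for membrane lipids, and lies on the plus strand of chromosome 1 (135766119 to 135769136). In single libraries it had values of 827.7, 1121 and 703.2 with GFP, 911.3, 1234 and 774.3 with GFP–TTP, and for GFP–TTP-AA 1167, 1580 and 991.1. The GFP–TTP-AA libraries overlapped those of both other conditions, because replicate 2 was high in all of them. Phlda3 rose with GFP–TTP-AA over GFP by 40.9% (log2 fold change 0.50 ± 0.14, adjusted p = 0.0190). With GFP–TTP the fold change was 0.14 ± 0.14 (adjusted p = 0.789), and the difference between the TTP lines, 0.36 ± 0.14, was not past the threshold (adjusted p = 0.0828). The chromosome 1 medians were between -0.0027 and 0.02. Its 3′UTR is the one without a pentamer, and whether pentamers go with fold changes was not tested.

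Trp53inp1, whose product assists p53 and takes part in autophagy, lies on the plus strand of chromosome 4 (11156431 to 11174379). Values of 135.6, 217.2 and 134.3 were found in the GFP libraries, 140.6, 225.3 and 139.3 in those of GFP–TTP, and 212.3, 340.1 and 210.3 in those of GFP–TTP-AA. Replicates 1 and 3 of GFP–TTP-AA lay just below replicate 2 of the other conditions, so that the ranges overlapped. Trp53inp1 rose by 56.6% with GFP–TTP-AA over GFP (log2 fold change 0.65 ± 0.20, adjusted p = 0.0483) and was 51.0% higher than with GFP–TTP (0.59 ± 0.20, adjusted p = 0.0376), whereas GFP–TTP against GFP gave 0.05 ± 0.20 (adjusted p = 0.965). The comparison of the TTP lines is itself the test of a difference between both effects over GFP, and Trp53inp1 was the single gene of the 10 for which it passed the threshold. Both adjusted p-values were near the threshold. After subtraction of the chromosome medians they were 0.0706 and 0.0653, with log2 fold changes of 0.62 and 0.55.

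Ccng1 encodes cyclin G1, a p53 target that acts back on p53 through Mdm2, and lies on the minus strand of chromosome 11 (40748552 to 40755311). The libraries gave 1172, 2017 and 1120 with GFP, 1567, 2695 and 1497 with GFP–TTP, and for GFP–TTP-AA 1209, 2080 and 1155. Replicate 2 was high in each condition, and the ranges overlapped. The log2 fold change with GFP–TTP over GFP was 0.42 ± 0.16, above that of 97.0% of the kept genes, but was not past the threshold (adjusted p = 0.186). GFP–TTP-AA gave 0.04 ± 0.16 over GFP and -0.37 ± 0.16 against GFP–TTP (adjusted p = 0.960 and 0.115). Values of Ccng1 were thus highest in the line with GFP–TTP, unlike those of Phlda3 and Trp53inp1, without passing the adjustment.

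Zmat3 encodes a zinc finger protein that binds RNA and takes part in splicing. Its gene, on the minus strand of chromosome 3 (32334792 to 32366014), has the longest 3′UTR of the 10 genes. Its library values were 607.4, 813.2 and 642.0 with GFP, 487.4, 652.4 and 515.1 with GFP–TTP, and for GFP–TTP-AA 614.9, 823.1 and 649.9. The lowest values were those of the GFP–TTP line, but the ranges overlapped. The log2 fold change was -0.32 ± 0.14 for GFP–TTP against GFP (adjusted p = 0.307), 0.02 ± 0.14 for GFP–TTP-AA against GFP (adjusted p = 0.989) and 0.34 ± 0.14 between the TTP lines (adjusted p = 0.108). None was past the threshold. The kept genes of chromosome 3 had a median of -0.18 in the first of these comparisons, and subtraction left -0.14 for Zmat3.

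Plk2 encodes a polo-like kinase of the S phase and the stress response, and lies on the plus strand of chromosome 13 (110395046 to 110400844). Its values per library were 3190, 3470 and 3209 with GFP, 2894, 3149 and 2912 with GFP–TTP, and for GFP–TTP-AA 2675, 2910 and 2692. All GFP libraries lay above those of both TTP lines, whose ranges just overlapped each other. The replicate term of Plk2 was small (0.12 and 0.0089 on the log2 scale for replicates 2 and 3 over replicate 1) and is no measure of the observed spread. By the SE of the authors' model, the changes of -0.14 ± 0.15 for the GFP–TTP line and -0.25 ± 0.15 for the GFP–TTP-AA line were not past the threshold (adjusted p = 0.803 and 0.458).

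Gadd45a, on the minus strand of chromosome 6 (67035096 to 67037457), encodes a stress sensor that arrests the cell cycle and activates p38 and JNK signalling. Its library values were 109.0, 184.4 and 127.9 with GFP, 99.5, 168.3 and 116.7 with GFP–TTP, and for GFP–TTP-AA 120.2, 203.4 and 141.1. The conditions overlapped. Its log2 fold changes were -0.13 ± 0.21 and 0.14 ± 0.21 over GFP and 0.27 ± 0.21 between the TTP lines (adjusted p = 0.886, 0.861 and 0.483).

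The replicate term, which stands for the library date in the authors' model, was larger for several of these genes than any condition change. This holds before the median shift of all kept genes is subtracted, and for Trp53inp1 the margin was small (0.68 beside 0.65). Replicate 2 over replicate 1 was 0.78 for Ccng1, 0.76 for Gadd45a, 0.68 for Trp53inp1 and 0.64 for Mdm2 on the log2 scale, beside a median of 0.20 over all kept genes. Sesn1 stood out in replicate 3, at -0.61 over replicate 1 with a median of 0.12 over all kept genes. This spread is removed from the comparisons by the model and is given as a description, since the scale between replicate numbers was estimated here.

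The genes whose fold changes over GFP lay nearest to those of a gene past the threshold were sought among genes whose mean fitted value was 50 or more. Closeness was the distance between the pairs of log2 fold changes of GFP–TTP and GFP–TTP-AA, which share the GFP libraries. For Sesn1 these were Sgsh (-0.69 and -0.70), Klf2 (-0.77 and -0.75) and Bloc1s5 (-0.68 and -0.57), and 1 gene lay within a distance of 0.1. For Phlda3 they were Nr2c2, Nbeal2 and Rfwd2, among 82 genes within 0.1, and for Trp53inp1 they were Saa3, Igsf6 and Tor3a, among 26.

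All 26 upstream regulators of p53 in the list were measured, and by the Wald test none was past the threshold in either comparison with GFP. This stands beside 2.09% (GFP–TTP) and 3.03% (GFP–TTP-AA) of all genes tested. An unadjusted Wald p under 0.05 was found for 3 (GFP–TTP) and 5 (GFP–TTP-AA) of the list. The share of all genes at that cut-off was not computed here, so that these counts have no background. Between the TTP lines 2 were higher and 2 lower with GFP–TTP-AA, beside 5.66% higher and 4.58% lower among all genes tested. Sirt1, a deacetylase of p53, was higher by 0.65 ± 0.22 (adjusted p = 0.0378), and Cdkn2a, whose locus encodes the Mdm2 inhibitor p19ARF and a cyclin-dependent kinase inhibitor, by 0.54 ± 0.15 (adjusted p = 0.00669). Mtbp, a partner of Mdm2, was at -0.56 ± 0.20 (adjusted p = 0.0498) and Ep300, an acetyltransferase of p53, at -0.46 ± 0.15 (adjusted p = 0.0276). After subtraction of chromosome medians Cdkn2a stayed past the threshold at 0.50, whereas Sirt1 (0.47), Mtbp (-0.47) and Ep300 (-0.38) kept their direction but were not past it (adjusted p = 0.187, 0.125 and 0.0994). Mtbp was also not past the threshold by the authors' own adjustment (0.0506) or without the filter on low values. The median of the list was 0.08 and 0.02 in the comparisons with GFP and -0.12 between the TTP lines.

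Among 12 apoptotic targets of p53, 11 were kept (Perp was not found among the measured genes). By the Wald test none was past the threshold with GFP–TTP over GFP, beside 2.09% of all genes tested. An unadjusted Wald p under 0.05 was found for 2 of them, again without a share over all genes at that cut-off. With GFP–TTP-AA over GFP, Bbc3 (PUMA, a pro-apoptotic BH3-only protein) and the death receptor Fas were higher, by 1.05 ± 0.20 and 0.83 ± 0.21, and Pmaip1 (NOXA, another BH3-only protein) was at -0.76 ± 0.18 (adjusted p = 4.67e-05, 0.00788 and 0.00257). Between the TTP lines Bbc3, Fas and Ei24, a protein of the endoplasmic reticulum, were higher with GFP–TTP-AA, by 0.90, 0.66 and 0.58 (adjusted p = 0.000308, 0.0250 and 0.0223). These calls, 3 of 11 in each comparison, stand beside 3.03% and 10.2% of all genes tested. The medians of the list were -0.05, 0.07 and 0.02 in the order of the 3 comparisons.

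Of 31 other targets grouped here as non-apoptotic, 29 were kept, as Sfn and Rprm were below the filter. As for the 10 genes, this grouping does not exclude a part in cell death. With GFP–TTP over GFP, 28 of them had a p-value. Eda2r, a receptor of the TNF receptor family, was higher (0.77 ± 0.21) and Pltp, a phospholipid transfer protein, lower (-1.03 ± 0.24). These calls stand beside 0.805% higher and 1.29% lower among all genes tested. With GFP–TTP-AA over GFP 3 were higher and 1 lower, beside 1.76% and 1.27% of all genes tested. These were Dram1 (0.90 ± 0.24), an autophagy protein, the thiamine transporter Slc19a2 (0.66 ± 0.15) and Sesn2 (0.57 ± 0.16), and Tigar, a regulator of glycolysis that the table lists by an older symbol, at -0.69 ± 0.17. Between the TTP lines 6 were higher with GFP–TTP-AA and 1 lower, beside 5.66% and 4.58% of all genes tested. The changes of largest size were those of Pltp (1.31 ± 0.24), Dram1 (0.94 ± 0.24), Ddit4 (0.67 ± 0.22), which restrains mTORC1, Sesn2 (0.63 ± 0.16) and the adenylate kinase Ak1 (-0.53 ± 0.15). The medians of the list were -0.0066, -0.0056 and 0.09. By the Wald test, 5, 12 and 12 genes of the list had an unadjusted p under 0.05, in the order of the 3 comparisons. The share of all genes at that cut-off was not computed here, so that no excess can be read from these counts. Dram1 and Ddit4 lie on chromosome 10, whose median was 0.17 in the last comparison, and Ddit4 was at 0.50 and not past the threshold after its subtraction (adjusted p = 0.151).

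**Figure D4:**
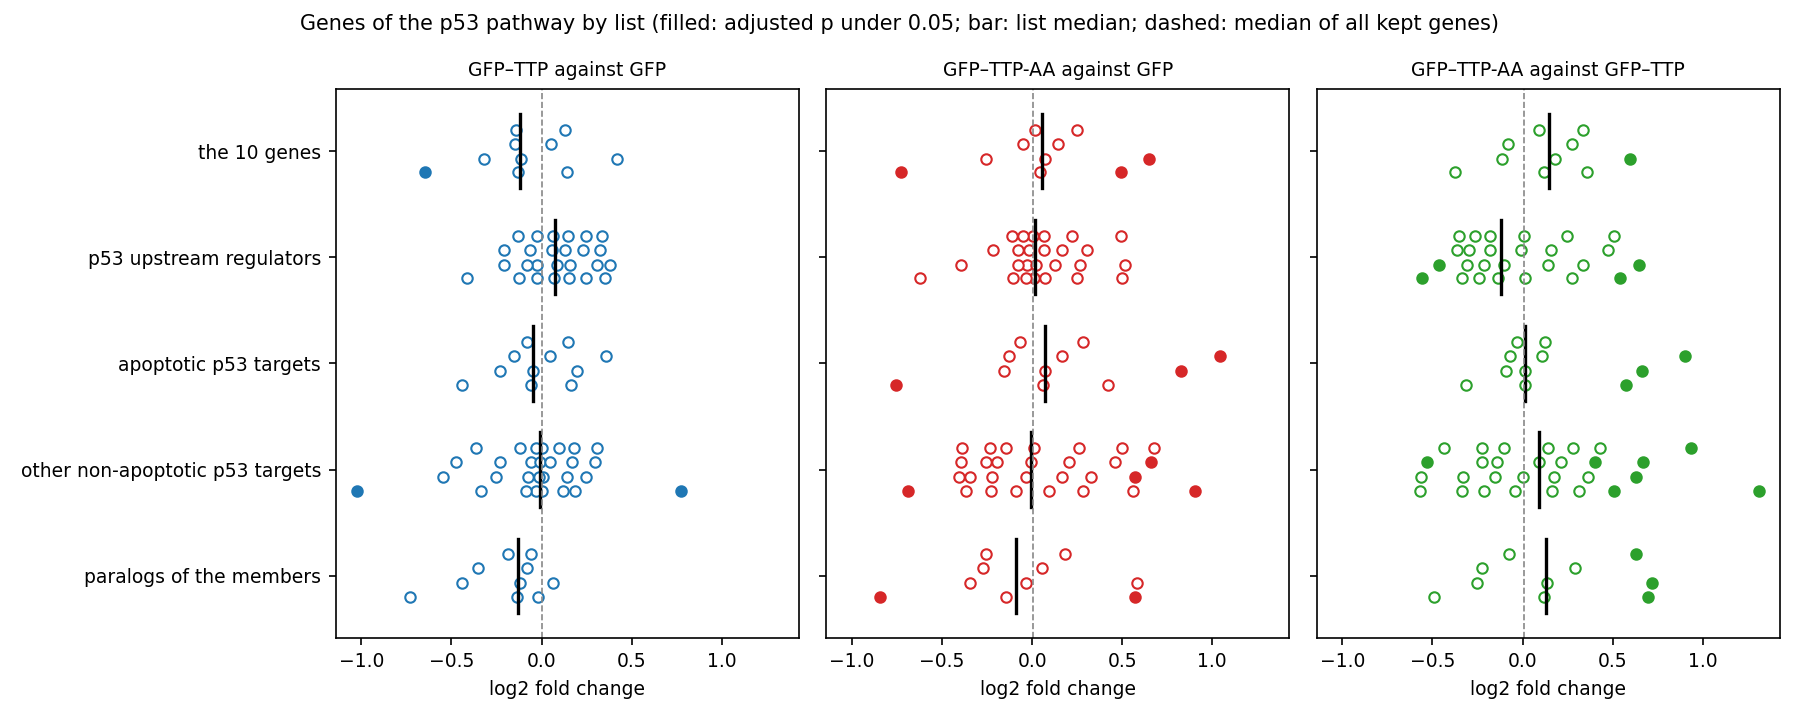
Log2 fold change (x axis) of the 10 genes and of the kept genes of 4 lists in the 3 comparisons, filled where the adjusted p was under 0.05, with the median of each list as a bar and the median of all kept genes as a dashed line. Most points are open and lie on both sides of 0, with Sesn1 the lowest of the 10 genes in both comparisons with GFP.

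Several p53 pathway genes have close paralogs. Of 13 listed, 10 were kept, as Trp73 was below the filter and Trp63 and Phlda2 were not found among the measured genes. Sesn2 and Sesn3 are the paralogs of Sesn1. Sesn2 rose by 0.57 with GFP–TTP-AA over GFP (adjusted p = 0.0157), in the comparison in which Sesn1 fell by 0.73, and was at -0.06 ± 0.16 with GFP–TTP (adjusted p = 0.946). Sesn3 was at -0.73 with GFP–TTP over GFP (adjusted p = 0.0792) and 0.70 higher in GFP–TTP-AA than in GFP–TTP macrophages (adjusted p = 0.0357), at levels between 8.8 and 14.6. Of the paralogs of Gadd45a, Gadd45g was lower with GFP–TTP-AA over GFP (-0.84 ± 0.23, adjusted p = 0.0131), and Gadd45b was higher in GFP–TTP-AA than in GFP–TTP macrophages (0.72 ± 0.20, adjusted p = 0.00677). After subtraction of the chromosome 10 median Gadd45b was at 0.55 and missed the threshold (adjusted p = 0.0653). The 2 paralogs past the threshold over GFP with GFP–TTP-AA and the 3 between the TTP lines, Sesn3 included, stand beside the shares of 3.03% and 10.2% over all genes. Plk1, Plk3, Plk4, Ccng2, Phlda1 and Trp53inp2 were past the threshold in no comparison. Differences between a gene and its paralog were not tested.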

How the data were processed

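RiboSeq libraries of 9 samples were analysed. Per the labels and the study's methods the authors trimmed reads with Trim Galore, mapped them with TopHat2 2.0.12 to GRCm38/mm10, keeping up to 2 alignments per read, counted them with HTSeq and fitted the counts with DESeq2 1.6.3 with terms for library date and condition. The labels and the methods differ in the version of TopHat. The deposited table is a signal that the authors fitted, the size factor times the fitted mean. The authors' deposited comparison tables hold a mean normalized count (signal), a log2 fold change with its SE, a score (Wald statistic), a p-value and an adjusted p-value. The SE and the p-value were used here, since no observed spread is in the fitted values, and fold changes computed from the fitted values equalled those deposited.

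Size factors (0.389 to 2.30) were recovered from the fold changes within a replicate number, and between replicate numbers by least squares on the mean normalized counts, so that values of different replicate numbers are comparable only approximately. The table has 16932 lines with 11 repeats. A gene was kept if its mean fitted value was 10 or more. p-values were adjusted over them (Benjamini-Hochberg, threshold 0.05), without a pseudocount. In GFP–TTP against GFP, 9938 of the 10103 kept genes had a p-value. The adjustment was tested on simulated data. Python 3.11.15, numpy, pandas and scipy were used. Older symbols were matched through the RefSeq gene table. The named genes were the 10 genes, at most 5 genes past the threshold per list and comparison by size of change, Zfp36, and the 3 genes nearest in pattern. The 10 genes and all lists were chosen with earlier results of these data known. The number of reads per library was not used here, and the precision is that of the SE.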

Additional observations from a re-analysis of the deposited data

How the results depend on the processing

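The number of the 10 genes past the threshold was 1, 3 and 1 in GFP–TTP against GFP, GFP–TTP-AA against GFP and GFP–TTP-AA against GFP–TTP. It was the same without the filter on low values, with a fitted mean of at least 50 and with the authors' own adjusted p-values. With the chromosome medians subtracted it was 0, 2 and 0, with the median of all kept genes subtracted 1, 2 and 1, with adjustment over the 3 comparisons together 1, 3 and 0, and with the Bonferroni method 0, 0 and 0. At an unadjusted Wald p under 0.05 it was 3, 3 and 4, a cut-off at which the share of all genes was not computed here. The call of Trp53inp1 over GFP was lost with both subtractions (adjusted p = 0.0706 and 0.0512), and its call between the TTP lines was lost with chromosome medians (0.0653) and with adjustment over the comparisons together (0.0622). No call of a fold change changed its sign. Pseudocounts of 1 and 10 moved the fold changes by at most 0.03. Arithmetic means over libraries must return the same fold changes, since the fitted values have 1 ratio in all replicates, and say nothing about stability. Mdm2 between the TTP lines went from 0.09 to -0.08 with chromosome medians subtracted, neither being past the threshold. For the lists the same alternatives were chosen after seeing the data. Chromosome medians changed the calls between the TTP lines from 2 higher and 2 lower to 2 and 0 for upstream regulators, where Chek2 was gained, and from 6 and 1 to 5 and 3 for other non-apoptotic targets.

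No paired analysis was possible because the deposited values are already fitted values that include the library date, and neither a fit without the replicate block nor one that leaves out a library was run.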
